A study of Mus musculus with 21 samples.

Results

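The mitochondrial carrier family of the mouse is treated here as the 44 genes of the deposited exon count table whose symbol reads Slc25a followed by a number, without the suffix of a pseudogene. Membership went by symbol alone, from 38087 genes in the table, though the choice was made with earlier results of these data known. Of the 44, 41 were among the 18334 genes that passed the filter on low counts, and Slc25a18, Slc25a31 and Slc25a41 did not. The series holds total RNA sequencing of epididymal white fat from male C57BL/6j mice, aged 15 to 16 weeks and fed ad libitum. One arm was raised conventionally, with a gut flora (12 libraries, numbered 1 and 2 at each time), and the other was germ-free (9 libraries). Fat was taken every 4 h over 1 day at 6 zeitgeber times (ZT, hours after lights on) from ZT02 to ZT22, and at ZT02, ZT14 and ZT18 the germ-free arm has 1 library. No genotype or further treatment is given, and nothing in the labels ties a library to a mouse of its own, so the p-values below rest on the spread between libraries, which may be technical.

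Slc25 proteins sit mostly in the inner mitochondrial membrane, where each exchanges or imports a small set of metabolites between the cytosol and the matrix. They carry adenine nucleotides and phosphate for ATP synthesis, citrate and dicarboxylates, amino acids, acylcarnitines, cofactors, iron and glutathione. In white fat, citrate export and pyruvate cycling through malate bring acetyl groups and reducing power to the cytosol for fatty acid synthesis, while carnitine carriers bring fatty acids the other way for oxidation.

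Total counts ran from 24388294 to 48348181 per library. The labelled tissue carried its markers in every library: 6 adipocyte genes summed to between 12407 and 22494 CPM (counts per 1000000, library sizes scaled by TMM). Markers of ciliated duct cells, a cell type of adjoining duct tissue, reached 379 CPM in germ-free ZT22 replicate 1, against a median of 11.5 CPM over all libraries. In 6 libraries (4 conventional, 2 germ-free) they were more than 5 times that median. Exon length was related to a gene's deviation from its mean over libraries differently in the arms (the median Spearman rho per library was 0.139 for the conventional arm and -0.195 for the germ-free arm, over 13537 genes). As these are bulk samples, fewer cells of a type and less RNA per cell cannot be told apart.

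Carrier mRNAs were on the whole more abundant in germ-free fat. Between the arms, 20 of the 41 tested carriers were higher in germ-free fat and 4 were lower (edgeR's quasi-likelihood test, with zeitgeber time as a factor and Benjamini-Hochberg adjustment over all genes tested). Of all genes tested, 15.3% were called higher and 11.6% lower, against 48.8% and 9.76% of the carriers. The median log2 fold change was 0.17 over the 41 carriers and 0.03 over all genes tested, and it was above 0 for 65.9% of carriers and 54.8% of all genes. Most changes were small: 4 of the 20 exceeded 1.5-fold and 1 exceeded 2-fold. No carrier had arms that did not overlap in CPM, which 0.665% of all genes had in either direction.

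**Figure D1:**
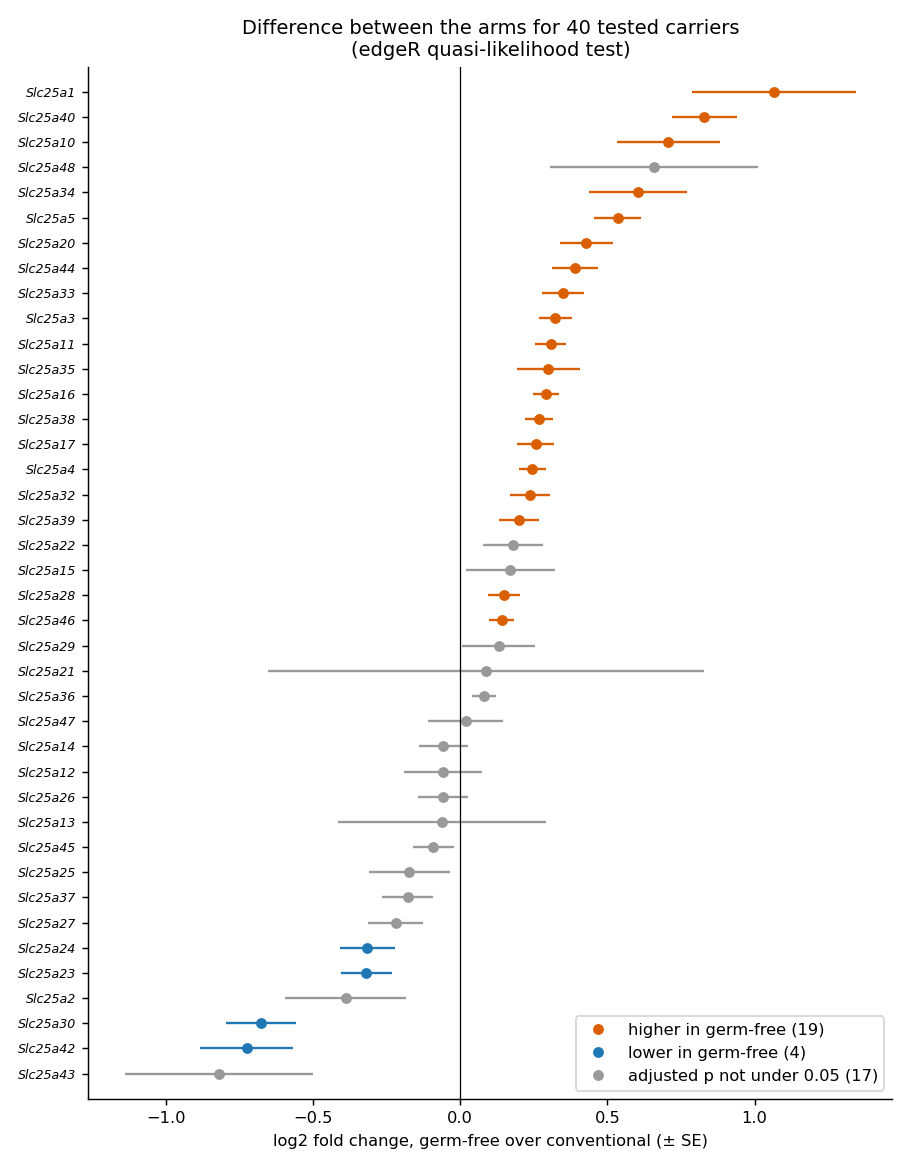
Difference between the arms for 40 of the 41 tested carriers. The x axis is the log2 fold change of germ-free over conventional with its standard error as a line, and orange, blue and grey points mark 19 carriers higher, 4 lower and the 17 that missed the threshold. Slc25a1 lies farthest to the right at 1.07, and Slc25a42 is the lowest of those that fell, at -0.73.

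Within a single replicate number fewer carriers were called, while the median log2 fold change was as large. Among libraries numbered 2 alone (6 in each arm), 4 carriers were higher and 1 lower, with a median of 0.19 over the 41 carriers. Libraries numbered 1 alone (6 conventional, 3 germ-free) gave 0 calls by edgeR for carriers or for any gene, with 10 carriers and 2562 genes at an unadjusted p under 0.05. The median there was 0.18 over 42 carriers. All 24 called carriers kept their direction in both subsets, which hold fewer libraries. As the 24 were called on these same libraries together, this is no separate test of their direction.

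Levels per length spanned a wide range. CPM per kilobase of exon (FPKM, from the deposited exon lengths) averaged over all libraries were at or above 10 for 18 carriers, from 1 to 10 for 18 and below 1 for 8. The 5 most abundant were Slc25a1 (180 FPKM), Slc25a5 (165), Slc25a4 (94.6), Slc25a10 (59.9) and Slc25a3 (52.6). Together they made up 55.6% ± 4.08 (SD, n = 12) of the summed carrier FPKM in conventional fat and 63.5% ± 4.49 (SD, n = 9) in germ-free fat. By arm, the order of the first pair changed: Slc25a5 stood at 138 ± 18.3 FPKM above Slc25a1 at 122 ± 56.0 in conventional fat, and Slc25a1 at 256 ± 134 above Slc25a5 at 200.03 ± 26.4 in germ-free fat (SD), differences smaller than the spread of Slc25a1 in both arms. Slc25a3 at 47.4 ± 2.81 and Slc25a10 at 46.7 ± 8.86 FPKM were close in conventional fat, and in germ-free fat Slc25a10 at 77.6 ± 27.1 stood above Slc25a3 at 59.6 ± 6.44 FPKM (SD), again by less than the spread of Slc25a10. Slc25a4 and Slc25a5 have processed pseudogenes, as does Slc25a3, and how reads shared with such copies were counted is not given in the sources used here, so the levels of these 3 are uncertain to that extent.

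**Figure D2:**
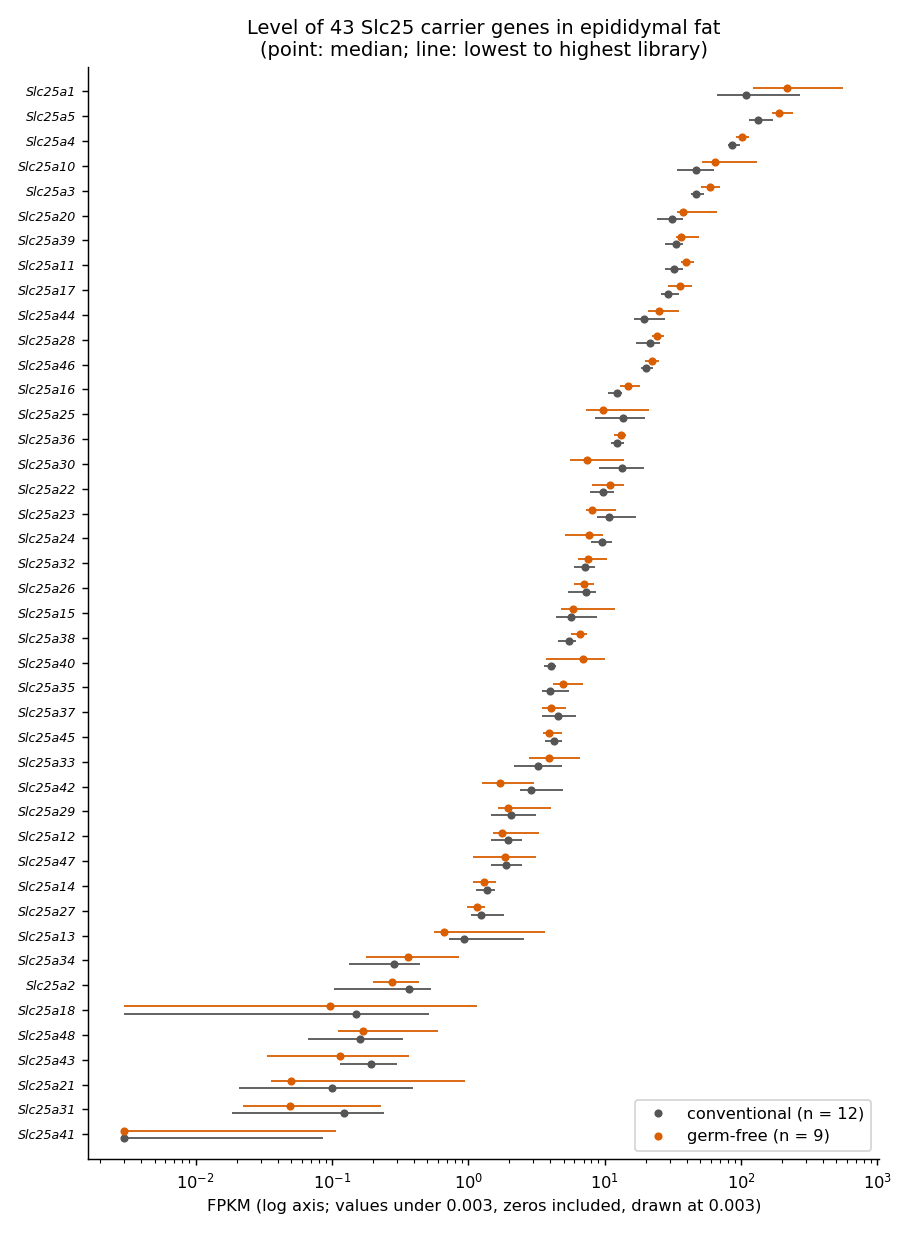
Level of 43 of the 44 carriers in FPKM on a log axis, with the median as a point and the lowest to highest library as a line (grey: 12 conventional; orange: 9 germ-free). Slc25a1 and Slc25a5 lead in both arms and Slc25a41 is last with a median of 0, drawn at the left edge.

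The upstream sequences of 4 carriers are shown because the results below turn on them: Slc25a1 and Slc25a10 for citrate and dicarboxylates, Slc25a40 as the carrier with the smallest p between the arms, and Slc25a33 as the carrier with a rhythm in both arms. Each is the 250 bases before the RefSeq start on GRCm38.p6 (mm10), written in the direction of transcription, for chr16:17928220-17928469 (minus strand), chr11:120491587-120491836 (plus strand), chr5:8422588-8422837 (plus strand) and chr4:149774268-149774517 (minus strand) in that order.
Slc25a1: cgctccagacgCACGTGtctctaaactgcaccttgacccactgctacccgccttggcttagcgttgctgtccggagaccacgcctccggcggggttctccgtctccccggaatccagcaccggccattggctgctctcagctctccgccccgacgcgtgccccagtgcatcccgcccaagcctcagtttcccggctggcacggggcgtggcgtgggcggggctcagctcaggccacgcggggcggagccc
Slc25a10: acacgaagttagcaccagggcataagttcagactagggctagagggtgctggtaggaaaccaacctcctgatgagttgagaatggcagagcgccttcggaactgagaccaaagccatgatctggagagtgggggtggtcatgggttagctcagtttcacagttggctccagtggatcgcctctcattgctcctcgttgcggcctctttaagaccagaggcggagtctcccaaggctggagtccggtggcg
Slc25a40: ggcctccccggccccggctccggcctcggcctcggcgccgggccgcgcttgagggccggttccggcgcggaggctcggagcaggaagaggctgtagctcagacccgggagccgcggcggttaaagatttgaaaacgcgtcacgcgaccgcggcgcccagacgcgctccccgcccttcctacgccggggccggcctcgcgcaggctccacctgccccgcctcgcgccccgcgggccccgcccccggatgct
Slc25a33: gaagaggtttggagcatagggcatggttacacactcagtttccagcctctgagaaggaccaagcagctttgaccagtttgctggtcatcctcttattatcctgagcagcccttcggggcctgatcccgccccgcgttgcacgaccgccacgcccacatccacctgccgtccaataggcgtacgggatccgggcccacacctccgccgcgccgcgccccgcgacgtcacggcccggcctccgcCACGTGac
Capitals mark the E-box CACGTG, a palindrome bound by clock and other basic helix-loop-helix factors, which begins 239 bases before the start in Slc25a1 and 8 bases before it in Slc25a33. RefSeq promoters were matched for 34 of the 44 carriers. In the 300 bases from 250 before to 50 after the start, 7 of the 34 (20.6%) held CACGTG on either strand, against 8.09% of 27025 genes: Slc25a1, Slc25a13, Slc25a14, Slc25a15, Slc25a31, Slc25a33 and Slc25a36. The ETS motif CCGGAAG, searched on both strands, was in 6 of 34 (17.6%, against 9.93% of all): Slc25a3, Slc25a4, Slc25a17, Slc25a20, Slc25a25 and Slc25a38. The sterol element TCACNCCAC was in 1, Slc25a18 (2.94%, against 1.44% of all). The ERR motif TCAAGGTCA, the NRF1 motif and the D-box TTACGTAA were in 0 of 34, against 0.466%, 1.07% and 0.126% of all genes. A match here describes letters in a window and shows no binding.

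Among the carriers of tricarboxylates and dicarboxylates, 3 of 4 rose. Slc25a1 (chr16:17925223-17928219), the citrate carrier that exports the precursor of cytosolic acetyl-CoA, ran from 145 through a median of 235 to 588 CPM in conventional libraries. In germ-free libraries it ran from 265 through 474 to 1221 CPM. The arms overlapped: only germ-free ZT22 replicate 2 (1221 CPM) and ZT10 replicate 1 (818 CPM) exceeded conventional ZT06 replicate 2 at 588 CPM, and no germ-free library fell under the conventional minimum. The log2 fold change was 1.07 ± 0.28 (SE, n = 12 and 9, edgeR adjusted p = 0.0102), and 0.83 without germ-free ZT22 replicate 2.

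Slc25a10 (chr11:120491840-120499187), the dicarboxylate carrier that exchanges malate and succinate for phosphate, had 121, 166 and 226 CPM as lowest, median and highest conventional values and 185, 230.0 and 470.4 CPM as the germ-free ones. Its log2 fold change was 0.71 ± 0.17 (SE, edgeR adjusted p = 0.00697), with 6 of 9 germ-free libraries above every conventional one. The highest libraries were those of Slc25a1. Slc25a11, which exchanges oxoglutarate for malate in the malate-aspartate shuttle, ran from 60.1 through 70.3 to 81.2 CPM and from 78.5 through 86.2 to 98.5 CPM, and rose by 0.31 ± 0.05 on the log2 scale (SE, edgeR adjusted p = 0.000904). Slc25a21, the oxodicarboxylate carrier of lysine and tryptophan breakdown, was under 1 FPKM and was not called (0.09 ± 0.74, edgeR adjusted p = 0.952).

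**Figure D3:**
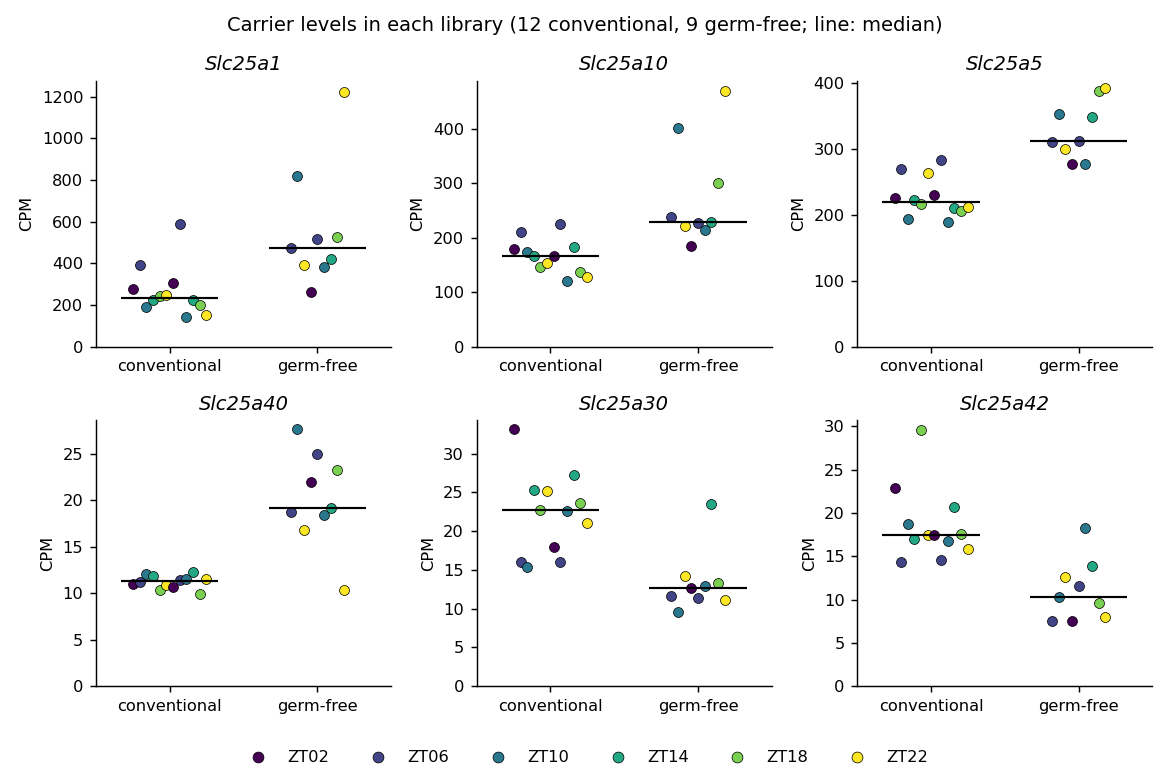
CPM of 6 carriers in every library, by arm, with the median as a line and zeitgeber time as the point colour. In Slc25a40, 8 of 9 germ-free libraries lie above all 12 conventional ones, and in Slc25a30 and Slc25a42, 8 of 9 lie below all of them.

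Of the 6 tested carriers of adenine nucleotides and phosphate, 3 rose and 2 fell. Slc25a5, the adenine nucleotide translocator 2 that exchanges ADP for ATP, ran from 189 through 220.1 to 284 CPM in conventional and from 278 through 312 to 393 CPM in germ-free libraries. Its arms touched only at 278 to 284 CPM, with 7 of 9 germ-free libraries above every conventional one, and the log2 fold change was 0.54 ± 0.08 (SE, edgeR adjusted p = 0.000325). Slc25a4, translocator 1, went from a median of 203 CPM (189 to 229) to 241 CPM (217 to 271), a log2 fold change of 0.25 ± 0.05 (SE, edgeR adjusted p = 0.00126). Slc25a3, the phosphate carrier, went from a median of 273 CPM (248 to 310) to 344 CPM (295 to 407), with 8 of 9 germ-free libraries above every conventional one and a log2 fold change of 0.32 ± 0.06 (SE, edgeR adjusted p = 0.000844).

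The ATP-Mg/phosphate carriers, which load or unload the matrix adenine nucleotide pool in response to calcium, did not share that direction. Slc25a23 ran from 47.9 through 59.0 to 92.6 CPM in conventional and from 39.8 through 44.1 to 66.5 CPM in germ-free libraries, 6 of which lay below every conventional one, and fell by 0.32 ± 0.09 on the log2 scale (SE, edgeR adjusted p = 0.0123). Slc25a24 ran from 27.3 through 32.7 to 38.8 CPM and from 17.6 through 26.5 to 33.1 CPM, with 5 of 9 germ-free libraries below every conventional one, and fell by 0.32 ± 0.09 (SE, edgeR adjusted p = 0.0194). Slc25a25 overlapped widely (44.8 to 103 and 38.4 to 110 CPM) and was not called, with a log2 fold change of -0.17 ± 0.14. Slc25a41, another carrier of ATP-Mg, reached at most 0.143 CPM, and Slc25a31, the translocator of the male germ line, at most 0.394 CPM, and neither was tested.

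Of the 10 tested carriers listed here under amino acids and carnitine, 3 rose and 0 fell (7 missed edgeR's threshold). Slc25a20, the carnitine/acylcarnitine carrier of fatty acid oxidation, ran from 42.9 through 55.6 to 66.5 CPM in conventional and from 60.5 through 66.8 to 119.8 CPM in germ-free libraries, a log2 fold change of 0.43 ± 0.09 (SE, edgeR adjusted p = 0.00275). Of the 9 germ-free libraries 5 exceeded every conventional one, with ZT22 replicate 2 the highest. Slc25a44, the branched-chain amino acid carrier, ran from 58.9 through 69.8 to 98.3 CPM and from 74.0 through 89.3 to 126 CPM, and 2 germ-free libraries exceeded the conventional maximum, at a log2 fold change of 0.39 ± 0.08 (SE, edgeR adjusted p = 0.00202). Slc25a38, the glycine carrier that feeds heme synthesis, ran from 12.4 through 15.0 to 16.96 CPM and from 15.5 through 18.01 to 20.3 CPM, with 6 germ-free libraries above and a log2 fold change of 0.27 ± 0.05 (SE, edgeR adjusted p = 0.000869). The 7 that missed the threshold were Slc25a12 and Slc25a13 (the aspartate/glutamate carriers), Slc25a22 (glutamate), Slc25a2 and Slc25a15 (ornithine), Slc25a29 (basic amino acids) and Slc25a48, with log2 fold changes from -0.39 (Slc25a2) to 0.66 (Slc25a48) and edgeR adjusted p from 0.177 to 0.931. The value of Slc25a48, whose substrate was not examined here, rests on 7 to 27 reads a library in conventional and 14 to 91 in germ-free fat. In the malate-aspartate shuttle the oxoglutarate carrier rose, while the aspartate/glutamate carriers were not called, at -0.06 ± 0.13 for Slc25a12 and -0.06 ± 0.35 for Slc25a13 (SE).

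Iron and glutathione carriers held the smallest p of the family. Slc25a40 (chr5:8422850-8454797), which with Slc25a39 brings glutathione into mitochondria, was tightly held in conventional fat, from 9.94 through 11.3 to 12.2 CPM. In germ-free fat 8 of 9 libraries lay between 16.8 and 27.7 CPM, above every conventional library, and ZT22 replicate 2 stood at 10.4 CPM, inside the conventional range. The log2 fold change was 0.83 ± 0.11 (SE, edgeR adjusted p = 0.000176), and 0.90 without that library. The library with the lowest germ-free Slc25a40 was thus the one with the highest Slc25a1, Slc25a10 and Slc25a20.

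Slc25a39 rose by far less, from a median of 92.0 CPM (76.5 to 103) to 101 CPM (91.4 to 135), a log2 fold change of 0.20 ± 0.07 (SE, edgeR adjusted p = 0.0392). The mitoferrins, which import iron, differed in call: Slc25a28 passed narrowly (0.15 ± 0.05, edgeR adjusted p = 0.0484, and 0.06 with adjusted p = 0.424 when exon length offsets were used), and Slc25a37, the form of developing red cells, missed (-0.18 ± 0.09, edgeR adjusted p = 0.140). Slc25a37 was highest, at 25.6 CPM, in conventional ZT06 replicate 1, where erythroid markers were also highest (1137 CPM, against a median of 464 CPM over all libraries). In germ-free ZT14 replicate 2, next in erythroid markers at 706 CPM, it stood at 17.6 CPM. Between the arms, erythroid markers had medians of 406 (conventional) and 565 CPM (germ-free), and Slc25a37 of 18.9 and 16.8 CPM. The part of red cells in the level of Slc25a37 was not tested. A separate gene model listed in capitals as SLC25A37, left out by the rule, may share reads with it, so its value is uncertain.

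Cofactor and nucleotide carriers gave 5 higher and 1 lower of 8. Slc25a16, a carrier linked to coenzyme A, ran from 58.7 through 68.1 to 74.6 CPM in conventional and from 72.6 through 82.3 to 101 CPM in germ-free libraries, 8 of 9 above every conventional one, and rose by 0.29 ± 0.04 (SE, edgeR adjusted p = 0.000341). Slc25a42, which exchanges coenzyme A for adenine nucleotides, went the other way, from 14.3 through 17.4 to 29.6 CPM down to 7.52 through 10.3 to 18.3 CPM, and fell by 0.73 ± 0.16 on the log2 scale (SE, edgeR adjusted p = 0.00343). For Slc25a42, 8 of 9 germ-free libraries lay below every conventional one, and ZT10 replicate 2 (18.3 CPM) lay within their range.

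Slc25a33, the pyrimidine nucleotide carrier, rose from a median of 8.12 CPM (5.35 to 12.1) to 9.63 CPM (6.96 to 16.4), with a log2 fold change of 0.35 ± 0.07 (SE, edgeR adjusted p = 0.00234). Slc25a17 (the peroxisomal cofactor carrier) and Slc25a32 (folate and FAD) rose by 0.26 and 0.24 on the log2 scale, with edgeR adjusted p of 0.00651 and 0.0157. Not called were Slc25a36, the other pyrimidine nucleotide carrier, at 0.08 ± 0.04, and Slc25a26, the S-adenosylmethionine carrier, at -0.06 ± 0.08 (SE). Further family genes carry older symbols in the table. Slc25a51 (the NAD carrier, listed as Mcart1) rose by 0.19 ± 0.07 (SE, edgeR adjusted p = 0.0479) and Slc25a53 (listed as Mcart6) was not called (0.07 ± 0.06). Slc25a54 (listed as 4930443G12Rik) did not pass the filter on low counts.

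The uncoupling-protein-like and orphan carriers gave 3 higher and 1 lower of 9. Slc25a30 (chr14:75760117-75787037), a close relative of the uncoupling proteins, ran from 15.4 through 22.7 to 33.1 CPM in conventional and from 9.56 through 12.7 to 23.6 CPM in germ-free libraries, and fell by 0.68 ± 0.12 on the log2 scale (SE, edgeR adjusted p = 0.000924). All germ-free libraries but ZT14 replicate 2 (23.6 CPM) lay below every conventional one. Slc25a34 (0.60 ± 0.17, edgeR adjusted p = 0.0137), Slc25a35 (0.30 ± 0.11, edgeR adjusted p = 0.0461) and Slc25a46 (0.14 ± 0.04, edgeR adjusted p = 0.0227), the last an outer-membrane protein of mitochondrial dynamics, were higher. The exons of Slc25a35 overlap those of Rangrf on the opposite strand over 31.3% of their length, and whether counting used strand is not given, so its reads and those of Rangrf may not be told apart. Slc25a43 and Slc25a27 just missed the threshold: Slc25a43 ran from 0.213 through 0.362 to 0.557 CPM and from 0.0621 through 0.213 to 0.683 CPM (-0.82 ± 0.32, edgeR adjusted p = 0.0663), and Slc25a27, the brain form UCP4, ran from 2.80 through 3.34 to 4.90 CPM and from 2.61 through 3.10 to 3.57 CPM (-0.22 ± 0.09, edgeR adjusted p = 0.0957). Slc25a14, Slc25a45 and Slc25a47 were not called either, at log2 fold changes of -0.06, -0.09 and 0.02.

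Of the 24 calls, 18 held in each of the 21 fits that left out 1 library: 14 of the 20 higher and all 4 lower carriers. The other 6 were lost when single libraries were left out, among them Slc25a28 in 16 of 21 fits, Slc25a39 in 15, Slc25a35 in 14, Slc25a46 in 6 and Slc25a32 in 2 (germ-free ZT14 and ZT18 replicate 2). Exon length offsets also ended the calls of Slc25a28, Slc25a35 (0.28, edgeR adjusted p = 0.0769) and Slc25a39 (0.15, edgeR adjusted p = 0.118), and left 22 carriers called, 21 of them among the 24.

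Genes akin to the carriers or working with them were taken as 3 lists, chosen with earlier results of these data known. The first held family carriers under other symbols, such as the uncoupling proteins Ucp2 and Ucp3, and other membrane transporters. Of its 14 tested genes, 9 were higher (64.3%) and 2 lower (14.3%), with a median log2 fold change of 0.28. Of all genes tested, 15.3% were higher and 11.6% lower, with a median of 0.03. Both subunits of the pyruvate carrier rose: Mpc1 went from a median of 75.2 CPM (61.0 to 128) to 131 CPM (97.3 to 276), by 0.82 ± 0.16 (SE, edgeR adjusted p = 0.00202), and Mpc2 rose by 0.72 ± 0.16 (SE, edgeR adjusted p = 0.00424). The outer-membrane channels Vdac2 and Vdac3 each rose by 0.32 ± 0.06 (SE, edgeR adjusted p = 0.000994 and 0.0016). Lower were Sfxn3, a serine transporter, at -0.67 ± 0.10 (8 of 9 germ-free libraries below every conventional one, edgeR adjusted p = 0.000341), and Ucp2, at -0.53 ± 0.12 (edgeR adjusted p = 0.00366). Ucp3 (0.25 ± 0.16) and Sfxn5 (0.15 ± 0.08) were not called. Mpc2, Ucp2 and the shuttle enzymes Acly, Me1, Gpd2, Got1, Got2, Cpt1a, Cpt2 and Crat below were chosen after their values were seen.

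Genes for the import of carrier proteins into the inner membrane gave 11 higher and 0 lower of 13 (84.6% and 0%, against 15.3% and 11.6% of all genes tested). The median log2 fold change was 0.25, against 0.03 over all genes, and none of the 13 was below 0. Timm29 (listed as 1810026J23Rik) and Timm22, parts of the TIM22 insertase, rose by 0.26 ± 0.05 and 0.28 ± 0.05 (SE, edgeR adjusted p = 0.00088 and 0.00178). The chaperone Timm8b rose by 0.33 ± 0.07 and the receptor Tomm70a by 0.17 ± 0.04 (SE, edgeR adjusted p = 0.00262 and 0.00326). Tomm40 and Timm8a1 missed the threshold (edgeR adjusted p = 0.0709 and 0.218).

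The enzymes of the shuttles gave 11 higher and 1 lower of 16 (68.8% and 6.25%, against 15.3% and 11.6% of all genes tested). Their median log2 fold change was 0.35, against 0.03 over all genes. Acly, which splits exported citrate, ran from 242 through 552 to 3647 CPM in conventional and from 827 through 2050 to 11113 CPM in germ-free libraries (1.71 ± 0.48, edgeR adjusted p = 0.0151). Its highest value was in germ-free ZT22 replicate 2, and the highest conventional one in ZT06 replicate 2, the same libraries as for Slc25a1. Me1, malic enzyme, rose by 1.299 ± 0.365 (SE, edgeR adjusted p = 0.0151), Gpd1 of the glycerol phosphate shuttle by 0.98 ± 0.21 (edgeR adjusted p = 0.00314) and Gpd2, its mitochondrial enzyme, by 0.80 ± 0.19 (edgeR adjusted p = 0.00643). Mdh1 and Mdh2, the malate dehydrogenases on the 2 sides of the membrane, rose by 0.44 ± 0.10 and 0.37 ± 0.08 (SE, edgeR adjusted p = 0.00408 and 0.00393). The aspartate aminotransferases Got1 and Got2, partners of Slc25a12 and Slc25a13, were not called (0.01 ± 0.15 and -0.05 ± 0.11), nor were Idh2 (0.06 ± 0.05) and Cpt1b (0.29 ± 0.13, edgeR adjusted p = 0.101). Cpt1a, which makes the acylcarnitines that Slc25a20 carries, fell by 0.25 ± 0.08 on the log2 scale (SE, edgeR adjusted p = 0.0385), opposite to Slc25a20 itself. The other called carnitine enzymes, Cpt2 and Crat, rose by 0.31 ± 0.10 and 0.32 ± 0.09 (SE, edgeR adjusted p = 0.0364 and 0.0130).

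Germ-free ZT22 replicate 2 stood apart within the family: of the 41 tested carriers 12 were at their highest of all 21 libraries there, among them 10 of the 20 higher ones, and 4 were at their lowest. The 5 thermogenic adipocyte markers summed to between 3.16 and 12.5 CPM with a gut flora and between 11.8 and 52.4 CPM without, with the maximum in that library and the next, 28.3 CPM, in ZT10 replicate 1. Ucp1, which defines thermogenic fat, reached at most 0.113 CPM in any library. That library also held 391 CPM of the 8 markers of male accessory glands and epididymis, nearly all from Crisp1 (390.6 CPM), against a median of 4.61 CPM over all libraries. The highest sum of that list, 1520 CPM, was in conventional ZT10 replicate 2, where 7 of the 41 carriers were at their lowest. The medians of adipocyte markers were 17118 (conventional) and 19499 CPM (germ-free), those of erythroid markers 406 and 565 CPM, and those of duct markers 26.5 and 7.00 CPM. The adipocyte genes did not move together. Fabp4 had medians of 7296 and 9521 CPM, Plin1 of 1289 and 1431 and Lipe of 1579 and 1616 CPM. Lower in germ-free fat were the medians of Adipoq (3148 and 3055 CPM), Cidec (2738 and 2484) and Lep (1225 and 624). Macrophage markers were at a median of 929 CPM in the conventional arm and of 732 CPM in the germ-free arm, and skeletal muscle markers at 15.1 and 7.87 CPM. Muscle markers had their highest value (48.7 CPM) in conventional ZT18 replicate 1, where Slc25a23 and Slc25a42 were at their highest too. In conventional ZT18 replicate 2, with 46.0 CPM of muscle markers, these carriers stood at 61.6 and 17.5 CPM, beside conventional medians of 59.0 and 17.4 CPM. Most of the muscle sum came from Acta1, with medians of 13.0 and 5.89 CPM and a conventional maximum of 45.8 CPM. Ckm, Myh1, Myh4 and Tnnt3 also had lower germ-free medians, at low levels, while Mb went from 1.12 to 1.34 CPM. The part of these cell types in the carrier results was not tested. Without germ-free ZT22 replicate 2, 15 carriers were higher and 4 lower.

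Daily rhythm of carrier mRNAs was found in few members. A 24 h cosine curve fitted in each arm gave 1 of 41 carriers with a rhythm in conventional fat, where 0.813% of all genes tested passed (edgeR's quasi-likelihood test, Benjamini-Hochberg adjusted). In germ-free fat 3 of 41 passed, beside 4.64% of all genes. Amplitudes below are from mean to peak on the log2 scale.

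Slc25a33, the pyrimidine nucleotide carrier, was the carrier called in both arms. Its conventional libraries stood at 7.90 and 6.74 CPM at ZT02, 6.35 and 5.35 at ZT06, 9.06 and 9.14 at ZT10, 12.1 and 11.6 at ZT14, 8.34 and 9.41 at ZT18 and 7.57 and 7.24 at ZT22. Germ-free libraries stood at 6.96 CPM at ZT02, 9.23 and 9.29 at ZT06, 11.4 and 9.94 at ZT10, 16.4 at ZT14, 11.4 at ZT18 and 9.63 and 9.10 at ZT22. Both arms were highest at ZT14, soon after the start of the dark phase, and libraries of the same time and arm lay close to each other. The fitted amplitude was 0.39 with a peak at ZT 14.8 in conventional fat (edgeR adjusted p = 0.0422) and 0.46 with a peak at ZT 14.4 in germ-free fat (edgeR adjusted p = 0.0258). The conventional call was lost in 10 of the 21 fits that left out 1 library, each of them conventional, with an adjusted p of up to 0.178. The germ-free call was lost without ZT14 replicate 2, the only germ-free library at the peak (amplitude 0.35, edgeR adjusted p = 0.219), and without ZT02 replicate 2 (0.41, edgeR adjusted p = 0.0785). Both calls were also lost among libraries numbered 2 alone and when each arm was fitted alone. An antisense gene, Gm13068, overlaps 14.9% of its exon bases, and the strand setting of the counts is not given.

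Slc25a34, an orphan carrier, was called in germ-free fat with an amplitude of 0.73 and a peak at ZT 22.1 (edgeR adjusted p = 0.0276), from 0.477 and 0.797 CPM at ZT10 to 2.30 and 1.77 CPM at ZT22. In conventional fat its amplitude was 0.59 with a peak at ZT 22.6 (edgeR adjusted p = 0.146), from 0.566 and 0.357 CPM at ZT10 to 1.18 and 0.961 CPM at ZT22. Its level was low, so single libraries rest on few reads. The germ-free call was lost in 5 of the 21 fits that left out 1 library (each germ-free library of ZT10, ZT14 and ZT22, adjusted p up to 0.0908). It was lost as well without the libraries high in duct markers (amplitude 0.70), with no filter on low counts, among libraries numbered 2 alone (0.48) and with the arm fitted alone. The highest value, 2.30 CPM, was in ZT22 replicate 1, the library with the most duct markers, whose part was not tested.

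**Figure D4:**
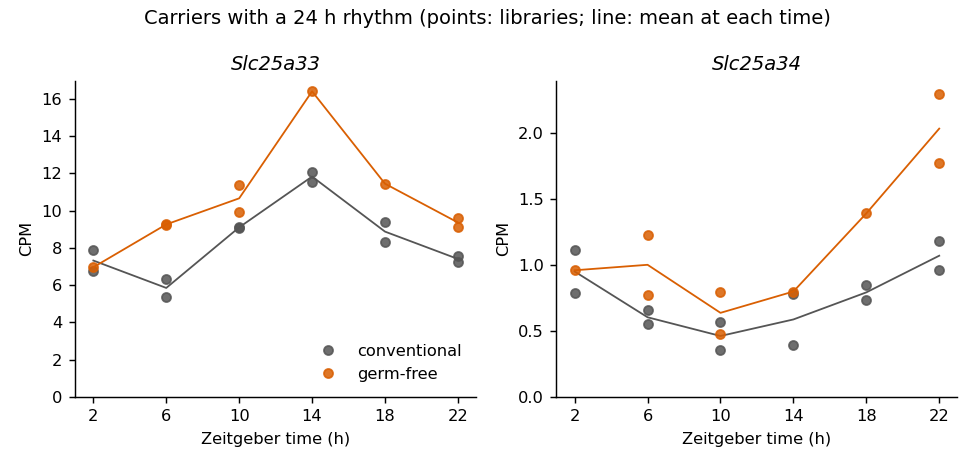
CPM of 2 carriers with a called rhythm against zeitgeber time in hours, with 1 point a library and a line through the mean at each time (grey: conventional; orange: germ-free). Slc25a33 is highest at ZT14 in both arms and Slc25a34 at ZT22.

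No carrier's rhythm was called different between the arms: the test of the arm-by-rhythm terms gave 0 of 41 carriers, as it gave 0% of all genes, by edgeR, with 2 carriers at an unadjusted p under 0.05, and DESeq2 also called 0 carriers. The carrier with the smallest p was Slc25a5 (p = 0.0395, edgeR adjusted p = 0.629). Its fitted peak was at ZT 2.77 in conventional and ZT 17.1 in germ-free fat, with amplitudes of 0.14 and 0.17, and neither rhythm was called. A rhythm called in germ-free fat alone, as for Slc25a34, is therefore not shown to differ between the arms.

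Some low carriers were high where ciliated duct markers were high. Slc25a13, Slc25a18 and Slc25a21, chosen after their values were seen, were at their highest in germ-free ZT22 replicate 1, the library with the most duct markers, at 11.1, 1.58 and 4.50 CPM. Their germ-free medians were 2.04, 0.133 and 0.240 CPM and their conventional medians 2.87, 0.205 and 0.478 CPM. The conventional maxima were 7.88 CPM for Slc25a13 in ZT02 replicate 2 and 0.706 and 1.87 CPM for Slc25a18 and Slc25a21 in ZT02 replicate 1, libraries with 158 and 150 CPM of duct markers. The part of duct cells in these levels was not tested, and none of the 3 was called between the arms. Without the 6 libraries rich in duct markers, 25 carriers were called, 23 of them among the 24 above, with Slc25a28 lost and Slc25a2 and Slc25a37 added.

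**Figure D5:**
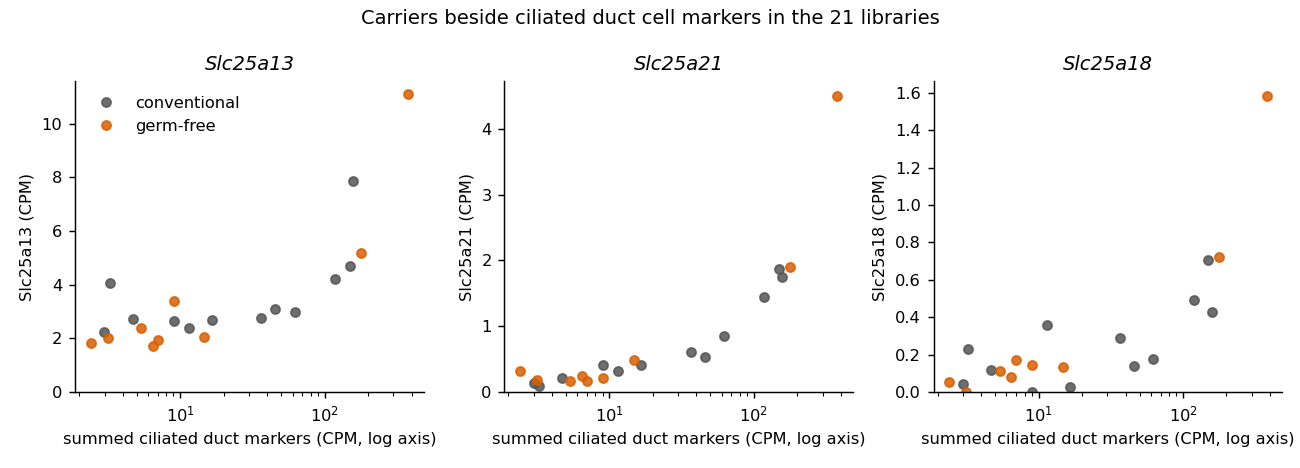
CPM of Slc25a13, Slc25a21 and Slc25a18 against the summed CPM of 7 ciliated duct cell markers (log axis) in the 21 libraries (grey: conventional; orange: germ-free). The rightmost point, germ-free ZT22 replicate 1 with 379 CPM of markers, is the highest for each of the 3 carriers.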

How the data were processed

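Libraries were made from total RNA after ribosomal depletion with a strand-marking kit and read on a HiSeq 2500 in pairs, per the labels' protocols. Reads were aligned with STAR 2.4.0i to mm10, per the submitters' processing notes, and the authors deposited raw exon counts per gene with exon lengths; the counting program and its strand and multi-read settings are not given in the sources. Counts were tested with edgeR 4.0.16 (R 4.3.3): genes passing filterByExpr, TMM scaling, the quasi-likelihood test with zeitgeber time as a 6-level factor plus arm, and for rhythms a 24 h cosine and sine per arm, all 21 libraries in 1 fit. P-values were adjusted by Benjamini-Hochberg over 18334 genes, with a threshold of 0.05. DESeq2 1.42.0 was an alternative, as were other size factors, no filter, a replicate block, exon length offsets, subsets of libraries and leaving out each library.

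On simulated counts for the comparison of arms, 78% of genes changed 1.5-fold and 91% changed 2-fold were recovered, with 9 false among 178 calls over 18334 genes. For rhythms, 65% (conventional) and 61% (germ-free) of those with a log2 amplitude of 0.5 were recovered. Changed genes were drawn only from those above a set mean level, which Slc25a34 does not reach. Counts were drawn independently, without duct cells or a length trend, so these rates may not hold for low carriers.

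Members and lists were chosen with earlier results of these data known. Named with statistics were up to 10 higher and 10 lower members of smallest p, the 5 of highest FPKM, up to 6 rhythmic ones, the smallest p of the rhythm difference, up to 2 just missing the threshold, and from each list of other genes up to 4 called and 2 not called; every other member is accounted for, except that 1 carrier and 1 gene of the lists, which stay in the counts and fits, are not reported here. FPKM was computed from CPM and the deposited exon lengths. Gene positions are from GENCODE M21 and promoters from RefSeq GRCm38.p6. Protein sequences were not used here.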

Additional observations from a re-analysis of the deposited data

Results flagged for a closer look

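In 10 of the 44 carriers 1 germ-free library lay farther from the other 8 than Dixon's 95% limit for 9 samples allows; chance alone flags about 1 in 20 groups of like samples, and these 9 libraries span 6 times of day. Of the 41 carriers tested between the arms 9 (22.0%) were so placed, and of all 18334 genes tested 14.7%. No conventional set (12 libraries) was tested this way. Germ-free ZT22 replicate 1, the library with the most duct markers (379 CPM), held Slc25a13 at 11.1 CPM (next 5.19), Slc25a18 at 1.58 CPM (next 0.723) and Slc25a21 at 4.50 CPM (next 1.90). In germ-free ZT22 replicate 2 Slc25a20 stood at 119.8 CPM (next 83.9) and Slc25a48 at 2.01 CPM (next 1.13). Germ-free ZT10 replicate 2 held Slc25a23 at 66.5 CPM (next 51.2) and Slc25a43 at 0.683 CPM (next 0.263). Germ-free ZT14 replicate 2, the only germ-free library of its time, held Slc25a30 at 23.6 CPM (next 14.3), Slc25a33 at 16.4 CPM (next 11.4) and Slc25a47 at 4.97 CPM (next 3.35). Hepatocyte markers were at 431 CPM in that library. They were highest, at 577 CPM, in conventional ZT02 replicate 2, where Slc25a47, a carrier of liver, stood at 3.08 CPM (conventional median 2.98). The part of hepatocytes in the value of Slc25a47 was not tested.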

How the results depend on the processing

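Over 31 alternatives of the comparison of arms, the 24 called carriers kept their call in 599 of 744 values, lost it in 145 and reversed direction in 0. DESeq2 called 23 of the 24, and edgeR with the replicate block 22. The replicate numbers were not taken as pairing the libraries, as the labels do not say what same-numbered libraries share. Between the arms, deviations of same-numbered libraries correlated at 0.266 and -0.143 at ZT06, -0.173 and -0.136 at ZT10 and -0.673 and -0.292 at ZT22. Those of libraries with unlike numbers correlated at -0.761 and -0.439, -0.384 and -0.366, and -0.0944 and -0.342 at the same times. Deviations from the fit of arm and time cancel out within a time, which pulls such correlations below 0. They therefore cannot decide whether the numbers pair libraries. Libraries numbered 2 alone gave 4 carriers higher and 1 lower (all genes: 445 and 466), 0 rhythmic in conventional and 1 in germ-free fat (all genes: 0 and 70). Libraries numbered 1 alone gave 0 and 0 carriers, and 0 and 0 of all genes. The times with 2 libraries in each arm gave 6 carriers higher and 1 lower, and 539 and 1173 of all genes, so that 31.5% of calls were higher there, against 56.9% in the full set. Carriers rhythmic in conventional fat were 0 with the replicate block, 0 with no filter on low counts and 0 without the libraries high in duct markers, which left 61 of all genes rhythmic. DESeq2 gave 5 carriers rhythmic in germ-free fat, and 815 and 2044 of all genes rhythmic in conventional and germ-free fat, with 48 differing. A fit to each arm alone gave 0 rhythmic carriers in conventional and 0 in germ-free fat, and 209 of all genes in conventional and 97 in germ-free fat, against 149 and 850 in the joint fit. Leaving out 1 library, carriers higher ran from 14 to 20 and lower from 4 to 5, rhythmic in conventional fat from 0 to 1 and in germ-free fat from 1 to 4. For all genes these fits gave 1585 to 2846 higher and 1794 to 2437 lower, 54 to 262 and 385 to 1110 rhythmic, and 0 to 3 with a difference of rhythm. The share of calls that were higher fell to 46.9% without germ-free ZT18 replicate 2. Subsets hold fewer libraries; for the other settings the cause was not tested.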
